A study of Mus musculus with 6 samples.

Results

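The enzymes of serine synthesis and of the folate one-carbon pathway were followed in 3T3-L1 adipocytes with and without forced expression of uncoupling protein 1 (UCP1), the inner-membrane protein of brown fat that dissipates the proton gradient as heat. The members were Phgdh, Psat1, Psph, Shmt1, Shmt2, Mthfd1, Mthfd2, Mthfd1l and Aldh1l2, chosen as every probe whose platform annotation gave exactly 1 of these symbols. All 9 genes had a probe, of 18014 genes measured, and Phgdh had 2, which made 10 probes of 36116 tested. 3T3-L1 is a mouse preadipocyte line that becomes adipocyte-like under an adipogenic cocktail. Total RNA was taken 10 days after differentiation from cells expressing UCP1 (3 arrays) and from cells carrying the Tet-off plasmid alone (3 arrays, called control here), and was biotin-labelled and hybridised to one-colour CodeLink mouse arrays. The promoter and the number of clones behind the UCP1 cells, and whether the UCP1 cells also carry the Tet-off plasmid, were not stated in the labels. Nothing says that replicate arrays stem from different cultures. The p-values therefore reflect array-to-array spread, possibly of technical origin only.

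Serine is built from a glycolytic intermediate by Phgdh, Psat1 and Psph. Its side-chain carbon is then passed to tetrahydrofolate, a carrier that delivers carbon units for purines, thymidylate and methionine. The folate steps run in parallel in the cytosol and in mitochondria, where the carbon leaves as formate, or as CO2 with reduction of NADP. Several of these genes are known targets of the transcription factor ATF4.

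All 10 member probes read lower on average on the UCP1 arrays, and 1 of them, Aldh1l2, passed the threshold of 0.05 (limma, Benjamini-Hochberg over all tested probes). Over all probes 2.03% were called lower and 0.800% higher. On 7 of the 10 probes the 3 UCP1 arrays lay wholly below the 3 control arrays, which 14.0% of all probes did. The median difference of the member probes was -0.38 on the log2 scale, UCP1 minus control, against -0.06 for all probes, of which 56.9% lay below 0. After quantile normalization, which gives all arrays the same distribution, the member median was -0.26 and all 10 probes were still below 0, while the median of the brighter part of all probes was 0.02, against -0.09 in the deposited scaling. Psat1 and Shmt2 came next to Aldh1l2, just short of the threshold.

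Values are spot intensities in the deposited scaling, where the median of each array lay between 1.04 and 1.05. Ucp1, the check of the labels, read 2.34, 2.02 and 1.54 on the UCP1 arrays, against 0.222, 0.232 and 0.278 on the control arrays. The bright end of the scale was lower on the UCP1 arrays, whose 99th percentiles were 225, 223 and 185, against 279, 255 and 258 on the control arrays, so for members on the bright end the position within the array is given too. Of 8 adipocyte, 9 preadipocyte and fibroblast, 5 macrophage, 4 endothelial and 5 skeletal muscle markers listed, 5, 8, 3, 4 and 5 were measured. The adipocyte markers Fabp4, Adipoq and Lpl had mean intensities of 693, 818 and 831 on the UCP1 arrays. On the control arrays they had 722, 880 and 853. Pparg averaged 144 on the UCP1 arrays and 166 on the control arrays, and Cebpa 2.99 and 4.85. All 5 adipocyte markers had a difference below 0, as had 10828 of 18014 genes read by their brightest probe, and 0 passed (limma). Only 1 of the 5, Cebpa, stayed below 0 after quantile normalization, where the median of the 5 was 0.06 and 0 passed. In the deposited scaling Cebpa had an unadjusted p under 0.05 (adjusted p = 0.167), as did 6161 of all 36116 probes. Among the preadipocyte markers Pdgfra and Thy1 rose, 1.59-fold and 1.74-fold. Of the 8 measured, 4 went the other way, with Cd34, Col1a1, Col3a1 and Vim below 0 and not called. After quantile normalization 2 of the 8 were below 0. The summed intensity of the list, mostly that of Col3a1, ran from 847 to 1122 on the UCP1 arrays and from 890 to 1113 on the control arrays. The call of Pdgfra was lost without UCP1 3 (limma, adjusted p = 0.109), control 1 (0.123), control 2 (0.142) or control 3 (0.161), and that of Thy1 without UCP1 3 (0.126), control 2 (0.106) or control 3 (0.0668). After quantile normalization 3 of the 8 preadipocyte markers were higher, Pdgfra (adjusted p = 0.00297), Pdgfrb (0.00758) and Thy1 (0.031), and the list's median difference was 0.41, against 0.14 in the deposited scaling. The macrophage markers summed to at most 0.538 on a UCP1 array and 0.711 on a control array, and the endothelial ones to 1.46 and 1.25. Of the 5 muscle markers Des read above the array median and the other 4 were dim. All 5 together, mostly Des, summed to 4.52 to 6.65 on the UCP1 arrays against 7.20 to 8.70 on the control arrays. The part of a change in cell makeup in any result was not tested, and in bulk RNA fewer cells of a type and less RNA per cell cannot be told apart.

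The promoters of 8 members were in the RefSeq table of GRCm38.p6, as 9 windows of 300 bases from 250 before to 50 after the annotated start. For Aldh1l2, the member called, no promoter was given there, so the counts below do not cover it. The promoters of Psat1, Mthfd2 and Shmt2 are printed because these members were among those with wholly separate groups, and because the windows differ in their motifs. Capitals mark CCAAT, read on either strand.
Psat1 promoter, chr19:15925010-15925309, strand -: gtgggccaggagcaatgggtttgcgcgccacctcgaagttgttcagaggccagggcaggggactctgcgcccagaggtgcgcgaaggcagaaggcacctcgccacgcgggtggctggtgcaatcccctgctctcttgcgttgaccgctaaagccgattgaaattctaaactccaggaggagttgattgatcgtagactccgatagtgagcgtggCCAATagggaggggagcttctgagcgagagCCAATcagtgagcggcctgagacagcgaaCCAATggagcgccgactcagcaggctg
Mthfd2 promoter, chr6:83317555-83317854, strand -: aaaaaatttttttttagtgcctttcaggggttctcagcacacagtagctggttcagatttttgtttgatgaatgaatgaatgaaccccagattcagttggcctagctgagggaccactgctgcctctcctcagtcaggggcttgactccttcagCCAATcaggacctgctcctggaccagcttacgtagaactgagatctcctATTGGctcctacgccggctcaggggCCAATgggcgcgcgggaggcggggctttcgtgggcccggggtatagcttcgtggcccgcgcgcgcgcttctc
Shmt2 promoter, chr10:127522395-127522694, strand -: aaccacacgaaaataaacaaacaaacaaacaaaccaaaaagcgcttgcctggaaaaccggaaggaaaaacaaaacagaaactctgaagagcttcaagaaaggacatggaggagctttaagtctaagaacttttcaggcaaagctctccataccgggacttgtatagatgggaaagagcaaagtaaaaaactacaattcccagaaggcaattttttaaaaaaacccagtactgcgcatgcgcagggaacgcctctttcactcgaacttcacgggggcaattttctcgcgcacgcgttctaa
The Psat1 window (the more upstream of its 2 annotated starts) and the Mthfd2 window each held 3 CCAAT boxes, and the Shmt2 window held none. CCAAT was found in 6 of the 9 member windows and in 37.4% of all 32851 promoters in the table. GGGCGG, the GC box, was found in 5 of 9 against 35.7%, and TATAAA in 1 of 9, that of Phgdh, against 13.6%. TGATGNAA, the core of the composite element bound by C/EBP and ATF factors, was found in 0 of 9 against 3.97%, and the E-box CACGTG in 0 of 9 against 7.15%. Both strands were read throughout, and in the Phgdh window TATAAA shares bases with a CCAAT. All 9 windows held more CG dinucleotides, at 8 to 30, than the median promoter, at 7. These are descriptions of the letters in these windows, not of binding.

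**Figure D1:**
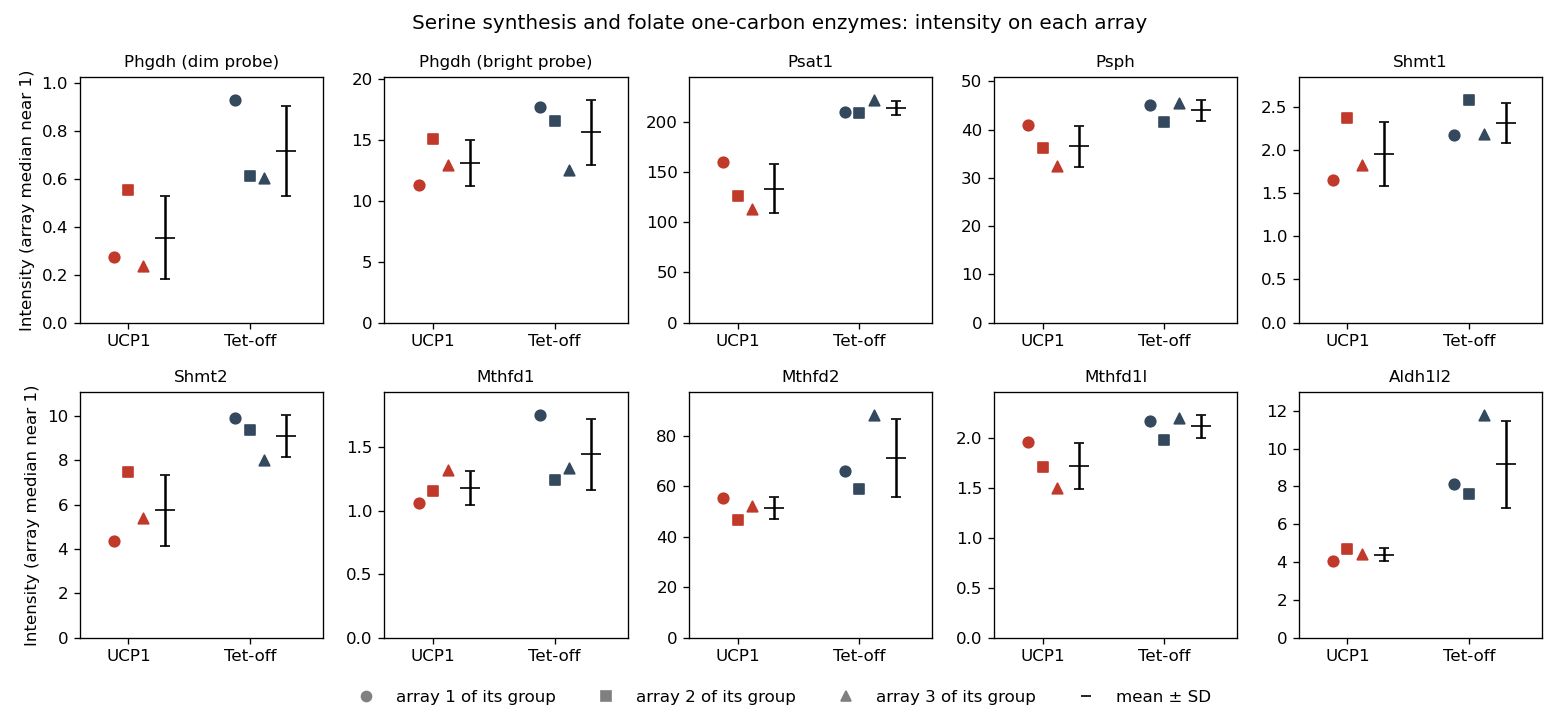
Intensity of each member probe on every array, UCP1 arrays left of Tet-off control arrays, with the group mean ± SD (n = 3) beside the points. The UCP1 arrays lie wholly below the controls on 7 of the 10 probes, most widely for Aldh1l2 and Psat1, and overlap them for Shmt1, Mthfd1 and the brighter Phgdh probe.

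Aldh1l2, the mitochondrial dehydrogenase that releases the folate-bound formyl carbon as CO2 while reducing NADP, was the member that fell past the threshold. Its probe (feature 189052) read 4.07, 4.71 and 4.41 on the UCP1 arrays, against 8.11, 7.58 and 11.8 on the control arrays. The UCP1 arrays lay close together, and even the lowest control stood well above them. Aldh1l2 averaged 4.39 ± 0.319 in UCP1 and 9.16 ± 2.30 in control adipocytes (SD, n = 3 each). It fell 2.05-fold (95% interval 1.61 to 2.61; limma, adjusted p = 0.00736), a log2 difference of -1.03 ± 0.160 (SE). Only 3.54% of all probes had a lower difference. Within the arrays the Aldh1l2 probe stood above 71.4%, 73.7% and 72.8% of probes on the UCP1 arrays, against 78.4%, 78.3% and 82.6% on the control arrays. The call was lost without UCP1 3 (limma, adjusted p = 0.0696), where the difference was -1.04, without the intensity trend (0.223) and with an ordinary test per probe (0.237).

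The mitochondrial step that feeds this arm is catalysed by Shmt2, which takes the carbon from serine and leaves glycine. Shmt2 (feature 66111) read 4.34, 7.49 and 5.40 on the UCP1 arrays, against 9.91, 9.38 and 8.04 on the control arrays. The groups did not overlap, but UCP1 2 came close to control 3. Its difference was -0.70 ± 0.177 (SE) on the log2 scale, 1.62-fold lower with a 95% interval of 1.24 to 2.12, and it did not pass (limma, adjusted p = 0.0594). Without UCP1 2 the difference was -0.91 and passed (limma, adjusted p = 0.00393), while without UCP1 1 it was -0.51 (0.0867), without UCP1 3 -0.67 (0.255) and after quantile normalization -0.58 (0.168). Shmt2 passed in 6 of 18 alternatives. By position within the array Shmt2 overlapped, at 72.0%, 79.1% and 75.3% of probes on the UCP1 arrays and 80.4%, 80.4% and 78.7% on the control arrays.

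Mthfd2 (feature 44084), the mitochondrial dehydrogenase and cyclohydrolase that oxidises the folate-bound carbon, was bright on all arrays. It read 55.5, 46.7 and 52.1 on the UCP1 arrays, against 65.9, 58.8 and 88.5 on the control arrays. Control 3 stood apart from the other two controls, and the UCP1 arrays lay below all of them. The log2 difference was -0.45 ± 0.162 (SE) and did not pass (limma, adjusted p = 0.169). It was -0.28 without control 3 and -0.24 after quantile normalization. Its position in the array overlapped between groups, at 93.8%, 93.7% and 94.4% of probes on the UCP1 arrays against 94.3%, 94.1% and 95.4% on the control arrays.

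Mthfd1l (feature 135086), the mitochondrial synthetase that frees the carbon as formate, read 1.96, 1.72 and 1.50 on the UCP1 arrays, against 2.17, 1.99 and 2.20 on the control arrays. The highest UCP1 array and the lowest control almost touched. Its difference was -0.31 on the log2 scale (95% interval -0.63 to 0.02; limma, adjusted p = 0.33).

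The cytosolic enzymes had overlapping groups. Shmt1 (feature 86045), the cytosolic counterpart of Shmt2, read 1.66, 2.37 and 1.82 on the UCP1 arrays, against 2.17, 2.58 and 2.18 on the control arrays. Its difference was -0.26 on the log2 scale with a 95% interval of -0.61 to 0.10 (limma, adjusted p = 0.478), and it was -0.15 without UCP1 1. Mthfd1 (feature 330053), which carries the dehydrogenase, cyclohydrolase and synthetase activities of the cytosol in a single protein, read 1.06, 1.15 and 1.32 on the UCP1 arrays, against 1.76, 1.24 and 1.33 on the control arrays. Control 1 was high and the other two controls lay within or next to the UCP1 range. The difference of Mthfd1 was -0.28 with a 95% interval of -0.68 to 0.12 (limma, adjusted p = 0.489). Without control 1 it was -0.13. Whether the cytosolic and mitochondrial enzymes differ in response was not tested.

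In serine synthesis Psat1, the aminotransferase that uses glutamate for the second step, had the lowest p. Psat1 (feature 186112) read 160, 126 and 113 on the UCP1 arrays, against 210, 209 and 222 on the control arrays. The controls were nearly equal and every UCP1 array stood well below them. Psat1 averaged 133 ± 24.5 in UCP1 and 214 ± 7.41 in control adipocytes (SD, n = 3 each). It was 1.62-fold lower (95% interval 1.25 to 2.10), at -0.70 ± 0.172 (SE) on the log2 scale, and missed the threshold (limma, adjusted p = 0.0537). After quantile normalization, which removes the difference in bright ends, its difference was -0.45 and passed (limma, adjusted p = 0.031). It also passed without UCP1 1, at -0.84 (adjusted p = 0.0099), but not without UCP1 3, at -0.59 (0.162), or without any of the controls (0.159 to 0.187). Psat1 passed in 8 of 18 alternatives, with adjusted p from 0.0099 to 0.254. Its position in the array did not overlap, at 97.2%, 96.7% and 97.0% of probes on the UCP1 arrays and 98.7%, 98.8% and 98.9% on the control arrays.

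Phgdh, the dehydrogenase that commits glycolytic carbon to serine, was read by a pair of probes that differed. The brighter (feature 353076) read 11.3, 15.1 and 12.9 on the UCP1 arrays, against 17.7, 16.6 and 12.6 on the control arrays. Control 3 lay among the UCP1 arrays, and the log2 difference of -0.25 ± 0.151 (SE) did not pass (limma, adjusted p = 0.458). The dimmer (feature 283076) read 0.273, 0.554 and 0.235 on the UCP1 arrays, against 0.930, 0.612 and 0.603 on the control arrays. All 6 readings lie below the array medians, and all but that of control 1 lie under the medians of probes with no gene name, which were 0.695, 0.690 and 0.713 on the UCP1 arrays and 0.653, 0.702 and 0.690 on the control arrays. Its groups did not overlap, and its difference of -1.09 had a wide 95% interval of -1.86 to -0.32 (limma, adjusted p = 0.128). Without UCP1 2 the dimmer probe's difference was -1.47 and passed (limma, adjusted p = 0.0227), the only 1 of 16 alternatives in which it did. Without UCP1 3 it was -0.85 (0.394) and without control 1 -0.89 (0.382). The brighter probe's difference was -0.12 after quantile normalization, and it passed in 0 of 18 alternatives (adjusted p = 0.248 to 0.773). Its position overlapped, at 82.1%, 86.1% and 84.6% of probes on the UCP1 arrays and 85.9%, 86.0% and 83.2% on the control arrays. Both probes of Phgdh were lower on average, by different amounts.

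Psph (feature 166031), the phosphatase that releases free serine, read 41.0, 36.1 and 32.5 on the UCP1 arrays, against 45.1, 41.5 and 45.5 on the control arrays. UCP1 1 almost reached control 2. Its difference was -0.27 on the log2 scale with a 95% interval of -0.55 to 0.002 (limma, adjusted p = 0.298), and -0.11 after quantile normalization. Psph stood above 92.14%, 92.44% and 91.95% of probes on the UCP1 arrays, against 92.56%, 92.46% and 92.80% on the control arrays. By position UCP1 2 thus lay only just under control 2.

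**Figure D2:**
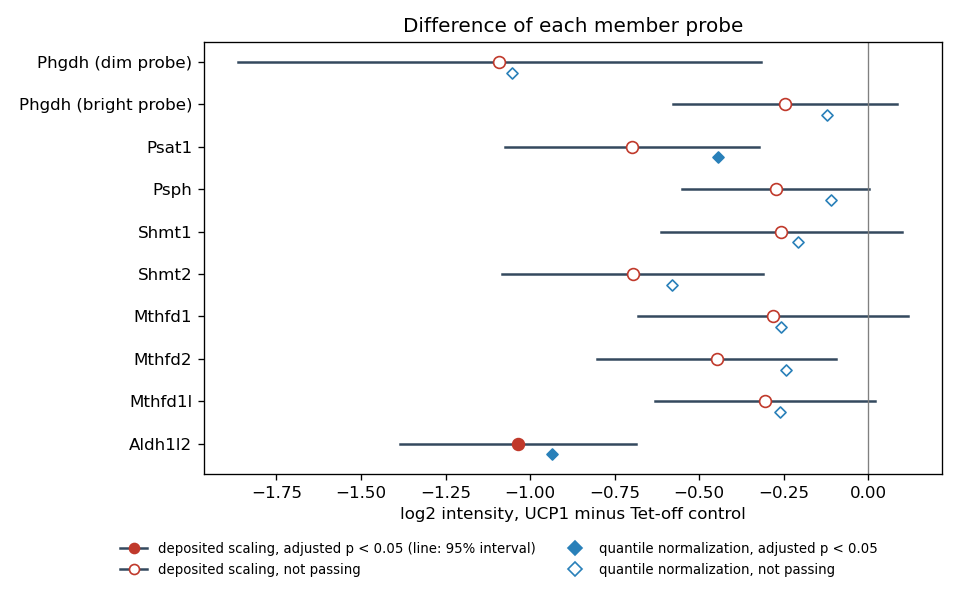
Difference of each member probe on the log2 scale, UCP1 minus Tet-off control, with its 95% interval in the deposited scaling (circles) and its value after quantile normalization (diamonds); filled symbols passed an adjusted p of 0.05. All 10 probes lie below 0 in both scalings, Aldh1l2 passes in both, and Psat1 passes after quantile normalization.

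The members did not share an order of arrays. Among the UCP1 arrays UCP1 1 was the lowest on 5 probes, UCP1 3 on 4 and UCP1 2 on 1, and among the controls control 2 was the lowest on 6, control 3 on 3 and control 1 on 1. By position within the array, 5 of the 10 probes kept groups that did not overlap, those of Phgdh (dimmer probe), Psat1, Psph, Mthfd1l and Aldh1l2, against 10.5% of all probes lower in this way.

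Genes of neighbouring steps were taken from lists, together with a list of ATF4 and its targets and a list of proliferation genes. Each gene was read by its brightest probe, of which 2.92% over all genes were called lower and 1.13% higher. In these lists 86 genes were measured, of which 15 fell and 1 rose, with limma's adjusted p as above. The ATF4 list held 16 of the genes and 7 of those that fell, and the proliferation list 12 and 0. The number of calls changed with the array left out, as it did over all probes, where it ran from 159 to 1894 against 1021. Leaving out UCP1 1 gave 20 calls in these lists, 13 of the 16 among them. Leaving out UCP1 2 gave 21, with 14 of the 16. Without UCP1 3 only 1 of the 16 remained, that of Trib3, without control 1 only 3, those of Trib3, Chac1 and Slc1a4, and without control 2 or control 3 only 7 each, while after quantile normalization 6 of the 16 remained among 8 calls, 5 lower and 3 higher.

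Carriers of serine and glycine held 4 genes that fell among 12 measured, and 0 that rose, with a median difference of -0.41 on the log2 scale against -0.08 over all genes. Slc1a4, an exchanger of serine, alanine and cysteine, read 8.76, 9.82 and 8.79 on the UCP1 arrays, against 15.6, 13.3 and 15.8 on the control arrays, and fell 1.63-fold (limma, adjusted p = 0.00947). Its groups were clearly apart. Slc1a5, the related glutamine exchanger, fell 2.13-fold (limma, adjusted p = 0.0263). Sfxn1, which carries serine into mitochondria, read 34.5, 51.5 and 34.0 on the UCP1 arrays, against 73.4, 66.5 and 58.7 on the control arrays. UCP1 2 was the nearest to the controls, and Sfxn1 fell 1.68-fold (limma, adjusted p = 0.0413). The glycine transporter Slc6a9 fell 1.41-fold (limma, adjusted p = 0.0477). After quantile normalization 1 of the 12, Slc1a4, was called.

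Folate carriers went both ways. Slc19a1, the reduced folate carrier of the cell surface, read 9.20, 9.33 and 11.0 on the UCP1 arrays, against 5.99, 4.92 and 7.35 on the control arrays, and rose 1.64-fold (limma, adjusted p = 0.0296). Slc46a1, the proton-coupled folate transporter, read 2.65, 3.35 and 2.37 on the UCP1 arrays, against 5.33, 3.97 and 4.50 on the control arrays, and fell 1.65-fold (limma, adjusted p = 0.034). Neither pair of groups overlapped, and after quantile normalization Slc19a1 stayed called while Slc46a1 did not, and Ggh, which trims stored folate, was called higher there. The other 5 of the 7 measured genes of folate supply did not pass.

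Purine synthesis, which takes carbon from formyl folate, held 2 genes that fell among 10 measured and 0 that rose. Paics, a bifunctional enzyme of ring assembly, read 1.12, 2.38 and 1.53 on the UCP1 arrays, against 4.22, 3.23 and 3.21 on the control arrays, and fell 2.20-fold (limma, adjusted p = 0.0269). Impdh1, which commits inosine monophosphate to guanine nucleotides, read 7.64, 11.8 and 7.63 on the UCP1 arrays, against 23.1, 16.6 and 14.9 on the control arrays, and fell 2.03-fold (limma, adjusted p = 0.0195). In both, UCP1 2 was the highest of its group and control 1 the highest of the controls. Gart and Atic, the enzymes that use formyl folate directly, were at 3.26 and 2.80 in UCP1 and 4.36 and 3.74 in control adipocytes and did not pass (limma, adjusted p = 0.297 and 0.302). They were named after their values were seen. After quantile normalization Paics and Impdh1 no longer passed (limma, adjusted p = 0.0573 and 0.0536), and Prps1, which makes the ribose donor, was called higher.

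Of 9 serine-consuming genes 1 fell, Srr, the racemase that makes D-serine. Its brighter probe read 2.96, 3.09 and 2.78 on the UCP1 arrays, against 4.46, 4.38 and 4.87 on the control arrays, and fell 1.55-fold (limma, adjusted p = 0.0183), while its other probe was not lower. All 9 had a difference below 0, as had 10828 of all 18014 genes, and the median of the 9 was -0.38. With quantile normalization 8 of the 9 lay below 0, at a median of -0.28, and Srr was still called. The glycine cleavage list (3 measured), the other folate and formate steps (7) and the methionine cycle (10) had 0 calls by limma. In each, 2 genes had an unadjusted p under 0.05, as did 6161 of all 36116 probes tested. With brighter probes only, where fewer probes were tested, Dld (adjusted p = 0.0279), Mthfsd (0.0364) and Ahcyl1 (0.0143) passed. The smallest p in these lists belonged to Dld, the shared lipoamide dehydrogenase, at -0.84 (adjusted p = 0.0904), Gcsh at -0.37 (0.249), Mthfsd at -0.44 (0.0812), Esd, which hydrolyses the formyl adduct of glutathione, at -0.43 (0.105), Ahcyl1 at -0.63 (0.0526) and Ahcyl2 at -0.52 (0.28), the last 2 being relatives of the adenosylhomocysteine hydrolase.

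Of 16 measured genes in a list of ATF4 and its targets 7 fell and 0 rose, with a median difference of -0.56, and 3 fell after quantile normalization. That list was drawn up with these results known and is no independent support. The 4 with the largest changes were Slc7a5 and Slc3a2, the chains of an amino acid exchanger, Trib3, a pseudokinase, and Chac1, which degrades glutathione, at -1.33, -1.15, -1.31 and -1.18 on the log2 scale. Slc7a5 was dim on the UCP1 arrays, at 0.368, 0.902 and 0.552, and its difference was -1.10 with an offset before log2. After quantile normalization Slc7a5 (adjusted p = 0.0625) and Slc3a2 (0.0938) did not pass. Atf4 itself averaged 253 on the UCP1 arrays and 299.98 on the control arrays and did not pass (limma, adjusted p = 0.563), and its log2 difference of -0.25 turned to 0.12 after quantile normalization and 0.02 after cyclic loess. Of 12 proliferation genes 0 passed, with a median of -0.14. An unadjusted p under 0.05 was reached by 2 of them, and by 6161 of all 36116 probes tested. The smallest p belonged to Mcm5, a subunit of the replicative helicase, at -0.57 (limma, adjusted p = 0.0507). Mcm5 passed with brighter probes only (0.014) and with an offset before log2 (0.0481). Next came the proliferation marker Mki67, at 0.54 (0.241).

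**Figure D3:**
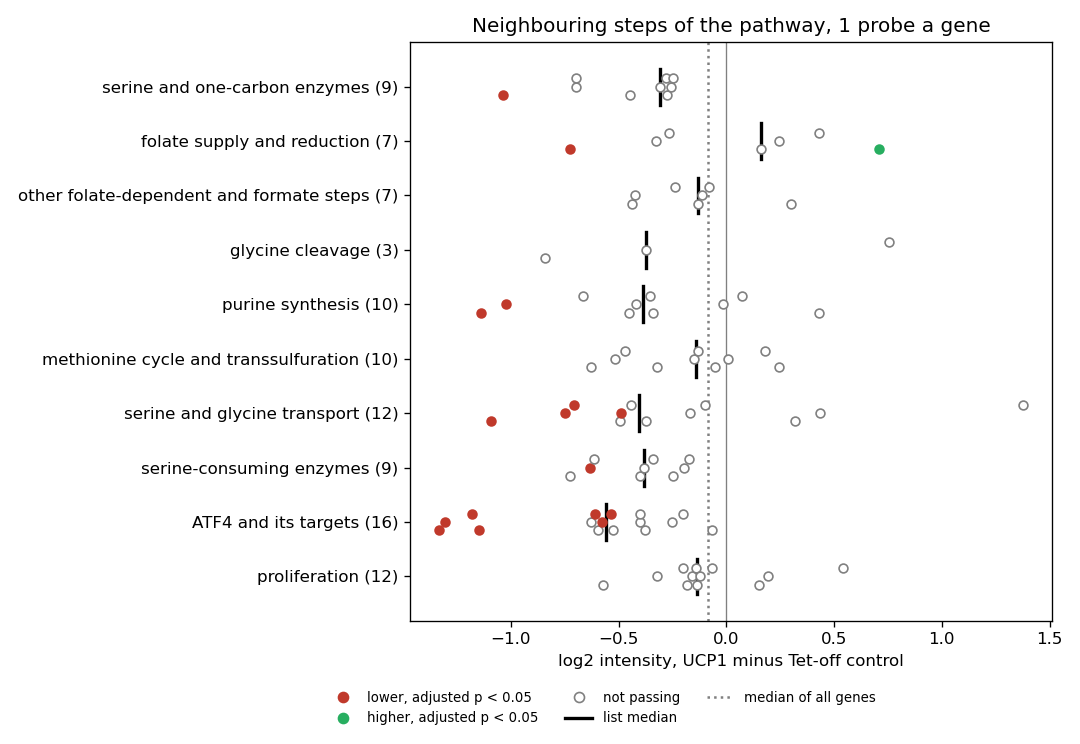
Log2 difference, UCP1 minus Tet-off control, of each member and each measured gene of the lists, those of ATF4 targets and proliferation included. Black bars are list medians, the dotted line is the median of all genes (-0.08), and coloured points had an adjusted p under 0.05. Red points, lower in UCP1, number 4 among the serine and glycine carriers and 7 in the ATF4 list, and the single green point is Slc19a1.

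By Pearson's r of log2 intensity over the 6 arrays, among 12041 probes at or above the median level with a gene name, the patterns most like that of the brighter Phgdh probe belonged to Cabp5 (r = 0.988), Ubn2 (0.987) and Fam222b (0.987). Those most like Mthfd2 belonged to Agmo (0.998), Rdh10 (0.987) and Mettl5 (0.986). Of those probes 53 had r above 0.95 with Phgdh and 54 with Mthfd2, over 6 points that fall into 2 groups.

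**Figure D4:**
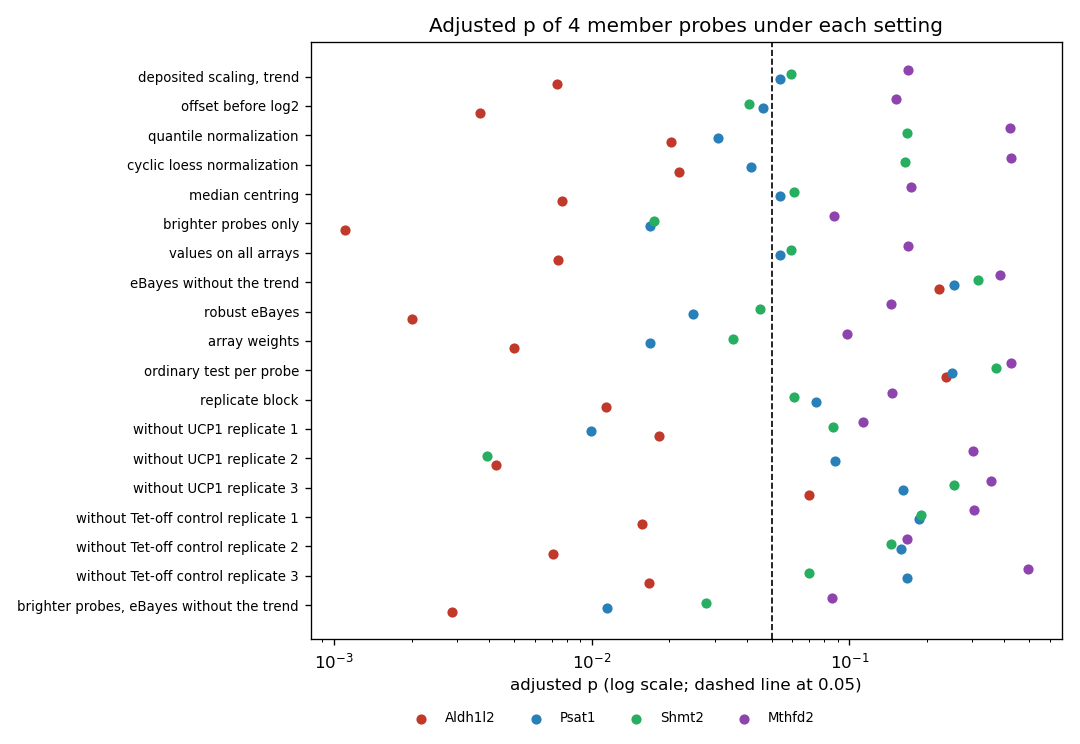
Adjusted p (log axis) of Aldh1l2, Psat1, Shmt2 and Mthfd2 under each setting of the test, with the threshold of 0.05 as a dashed line. Aldh1l2 lies left of the line in all settings but 3, Psat1 and Shmt2 cross it, and Mthfd2 stays to its right.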

How the data were processed

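The deposited values are one-colour spot intensities on a linear scale. How the authors scanned, background-corrected and scaled the arrays was not stated in the labels; from the values, the array medians were nearly equal. The code -9999 was read as missing. Intensities were taken to log2 after raising any value not above 0 to its array's smallest positive one. A probe was tested with values on at least 2 arrays per group, 36116 of 36227. Of all probes 21615 had 1 gene symbol, 681 several and 13931 none. Groups came from the source labels and the test was limma's (version 3.58.1, R 4.3.3; lmFit, eBayes with an intensity trend, two-sided, Benjamini-Hochberg over all tested probes, threshold 0.05). The number of arrays limits the precision. The functions were tested on simulated data.

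Named genes were all members and, per list, up to 4 called genes by size of difference, or the 2 with the smallest p. Outside that rule stand Ucp1, Atf4, Gart, Atic, the cell type markers and the genes of most similar pattern. Ggh, Prps1 and Pdgfrb were named for their calls after quantile normalization. The members and lists were chosen with earlier results of these data known. Same-numbered arrays did not deviate together (r = -0.24, -0.01 and 0.10), so arrays were not paired by number. For UCP1 1, UCP1 2 and UCP1 3 the highest r with a differently numbered control was 0.29, 0.35 and 0.06. Other pairings were not tested. Alternatives were an offset of 0.171 (the 10th percentile) before log2, quantile, cyclic loess and median scaling, filters on dim and on missing values, other variance models, array weights, an ordinary test of each probe, a replicate block, and each array left out. Promoter sequences are RefSeq's, of GRCm38.p6; no build was stated for the array.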

Additional observations from a re-analysis of the deposited data

How the results depend on the processing

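All 10 member probes stayed below 0 in every alternative that could be run for them, 178 values in all. Of these values 160 kept their side of the threshold, 15 newly passed and 3, all of Aldh1l2, no longer passed. The filters, the other variance models, the ordinary test and the replicate block leave a member's difference unchanged, so its sign was fixed there. The remaining alternatives reuse the same 6 arrays, so the 178 values are not separate checks of direction. Aldh1l2 passed in 15 of 18 alternatives, Psat1 in 8, Shmt2 in 6 and the dimmer Phgdh probe in 1 of 16. Called member probes numbered 1 in the deposited scaling, 3 with the offset, with brighter probes only, with robust eBayes, with array weights and with brighter probes and no trend (chosen after seeing the data), 2 with quantile or cyclic loess normalization, and 0 with eBayes without the trend or an ordinary test per probe, where 4 and 3 had an unadjusted p under 0.05. Leaving out 1 array gave 0 to 3. With the replicate number as a block it was 1, and over all probes 776, against 1021. Over all probes the count was 2239 with brighter probes only, 2135 there without the trend and 1811 with array weights. It was 0 without the trend (4951 at an unadjusted p under 0.05) and 3 with an ordinary test (4818 at an unadjusted p under 0.05). With 1 array left out it was 159 to 1894. The split of 732 lower and 289 higher calls became 446 and 567 after quantile normalization and 460 and 517 after cyclic loess. Calls in the pathway lists numbered 16, against 8 after either of these, 0 without the trend (28 at an unadjusted p under 0.05) and 0 with an ordinary test (29), and 1 to 21 with 1 array left out. The cause of these shifts was not tested. Dim readings, such as those of the second Phgdh probe, limit what can be said of their size.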
